A study of Homo sapiens with 10 samples.

Results

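EWS binding was compared between 2 human prostate cell lines by ChIP-seq, in which DNA bound by a protein is recovered with an antibody and sequenced. The EWS peak list of VCaP, a prostate cancer line, held 9500 peaks. That of RWPE1, a normal prostate line that stably expressed wild-type ERG, held 5703. Both lists were taken whole, and their 15203 peaks make up a part of the 30301 peaks in the 7 lists of the series. The same EWS antibody, clone G5, was used in both lines. The other lists, used here for reference, are ERG in VCaP, ERG in RWPE1 with wild-type ERG (2 replicates), and ERG and EWS in RWPE1 with ERG P436A, a point mutant. The 3 input samples were not used.

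VCaP cells were grown in DMEM with serum, and RWPE1 cells in a serum-free keratinocyte medium with growth factor and drug selection. Cell line, medium and the source of ERG thus differed together between the EWS lists, and their parts cannot be told apart. VCaP is known to make ERG from its own TMPRSS2-ERG fusion gene, whereas the ERG of these RWPE1 cells was introduced. The labels do not say whether the RWPE1 line was a clone or a pool. Each EWS list comes from 1 sample, so no difference below has a replicate check, and no test between the cell lines was possible. The lists may also have been called with unlike settings: 45.3% of RWPE1 EWS peaks were wider than 501 bp and no VCaP EWS peak was, and the part of this in the widths, spacing, bin counts and overlaps below was not tested. Intervals are exact Clopper-Pearson 95% binomial intervals, which cover counting error only. Peaks that lie near each other are not independent.

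EWS, the product of the EWSR1 gene, is an RNA-binding protein of the FET family and is best known from gene fusions with ETS factors in Ewing sarcoma. It binds nascent RNA and RNA polymerase II and acts as a co-activator of transcription. ERG is an ETS factor that binds DNA directly and is switched on by gene fusion in many prostate cancers. A ChIP peak of EWS can therefore mark a place where it was held by a factor such as ERG, by RNA or by the transcription machinery.

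Few EWS sites were found in both lines. Of the RWPE1 peaks, 70 overlapped a VCaP peak by at least 1 bp (1.23%, 0.958% to 1.55%). Of the VCaP peaks, 71 overlapped an RWPE1 peak (0.747%, 0.584% to 0.942%). Both lists had peaks on 24 chromosomes, and shared sites lay on 14 of them. The larger list in VCaP did not contain the smaller one: 1748 bins of 1 Mb held an RWPE1 EWS peak, 1324 held a VCaP EWS peak, and 813 held both.

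Where peaks overlapped, they mostly lay on top of each other. The median overlap was 421 bp and the median distance between centres 117 bp over 71 pairs. In 38 pairs the overlap was at least 400 bp, and in 30 pairs the centres lay within 100 bp. The loosest pair overlapped by 6 bp, on chromosome 5 with its RWPE1 peak at 59201107 to 59201719. In 7 pairs the centres were more than 500 bp apart. A reciprocal overlap of 0.5 left 49 shared peaks in each list.

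Near misses were also few. The nearest VCaP peak lay within 10 kb of 303 RWPE1 peaks (5.31%) and within 100 kb of 1170 (20.5%), the 70 overlapping peaks included. The median distance from an RWPE1 EWS peak to the nearest VCaP EWS peak was 764 kb. From a VCaP EWS peak to the nearest RWPE1 EWS peak it was 277 kb. Within VCaP, the median distance from an EWS peak to the nearest ERG peak was 25 kb. Within RWPE1, it was 232 kb to the nearest ERG peak of replicate 1 and 228 kb to the nearest EWS peak of the P436A cells. To the nearest VCaP ERG peak it was 313 kb. By the median, RWPE1 EWS peaks thus lay farther from the VCaP EWS list than from these 3 lists, although the VCaP EWS list is the longest. Distances to ERG replicate 2 and to ERG P436A were not computed. At short range the order against VCaP ERG was the other way, with 87 RWPE1 EWS peaks within 1 kb of a VCaP EWS peak and 39 within 1 kb of a VCaP ERG peak. Both counts include overlapping peaks.

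**Figure D1:**
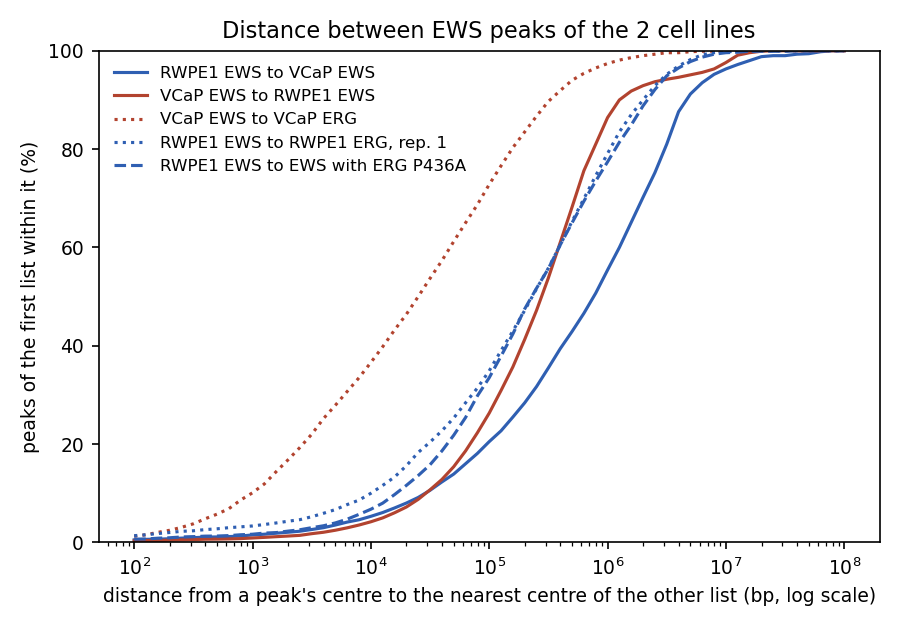
Share of peaks (y axis, %) whose centre lies within a given distance (x axis, bp, log scale) of the nearest centre in another list. Solid lines are EWS between cell lines. Broken lines are lists of the same cell line, dotted for ERG of the same cells (replicate 1 in RWPE1) and dashed for EWS of P436A cells. At 100 kb the solid lines reach 20.5% (RWPE1) and 26.3% (VCaP), and the dotted VCaP line reaches 72.8%.

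The lists leaned on different chromosomes. VCaP EWS peaks were most frequent on chromosome 11 (1612 peaks, 17% of the list, 16.2% to 17.7%), chromosome 8 (1537 peaks, 16.2%, 15.4% to 16.9%) and chromosome 17 (938 peaks, 9.87%, 9.28% to 10.5%). These 3 chromosomes held 43.0% of the VCaP list and 10.4% of the RWPE1 list. RWPE1 EWS peaks were most frequent on chromosome 1 (1206 peaks, 21.1%, 20.1% to 22.2%), chromosome 5 (935 peaks, 16.4%, 15.4% to 17.4%) and chromosome 20 (458 peaks, 8.03%, 7.34% to 8.77%). In VCaP those chromosomes held 2.80%, 4.91% and 1.08% of the EWS peaks. The ERG lists had these leans only in part. Chromosome 1 held 21.4% of ERG replicate 1 in RWPE1 but 6.76% of replicate 2, near the 5.96% of VCaP ERG. Chromosomes 5 and 20 held 12.8% and 15.4% of replicate 2. Chromosome 11 held 13.6% of VCaP ERG, but chromosome 8 held 6.13% of it, near the 5.38% of RWPE1 EWS.

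Some chromosomes were nearly empty in one list. Chromosome 16 had 2 VCaP EWS peaks against 111 in RWPE1, and chromosome 2 had 22 against 344. In the other direction, chromosome 22 had 172 VCaP EWS peaks and 2 in RWPE1. Chromosome 7 had almost the same share in both, 2.42% in VCaP and 2.44% in RWPE1. Over chromosomes 1 to 22 and X, 13 had the higher share in VCaP and 10 in RWPE1, and 53.1% of one list would have to change chromosome for the shares to match.

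**Figure D2:**
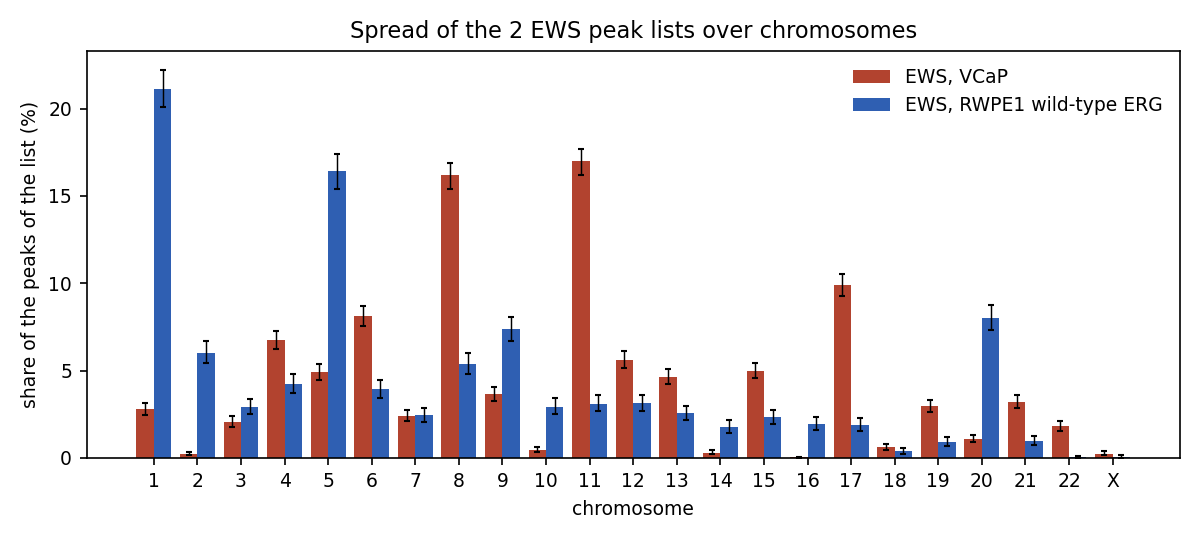
Share of each EWS list (y axis, %) on chromosomes 1 to 22 and X (x axis), with exact 95% binomial intervals as error bars. VCaP stands above RWPE1 on chromosomes 8 (16.2% against 5.38%), 11 and 17, and RWPE1 above VCaP on chromosomes 1 (21.1% against 2.80%), 5 and 20.

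The lean towards chromosomes was in part a matter of dense runs of peaks. When peaks within 10 kb of each other in a list were counted as 1, chromosome 11 fell from 17% to 9.05% of the VCaP list, and chromosome 8 stood at 17.5%. Chromosome 1 then held 16% of the RWPE1 list. The run with the most peaks in VCaP lay on chromosome 11, 63117292 to 63670870, with 161 peaks in 554 kb. The next was on chromosome 6, 10970606 to 11474857, with 153 peaks in 504 kb. In RWPE1 the run with the most peaks was on chromosome 1, 195384108 to 195443451, with 12 peaks in 59.3 kb. The median spacing of neighbouring peaks was 21.4 kb in VCaP and 133 kb in RWPE1. Peaks with no neighbour within 10 kb made up 79.5% of the RWPE1 list and 51.0% of the VCaP list.

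Within some chromosomes, the lists also favoured different sides, or the same side to unlike degrees. Each chromosome was divided at its widest stretch without a peak in any of the 7 lists, which on chromosome 1 ran from 121118447 to 142535598. The fuller side was the same in both EWS lists on most chromosomes. On chromosome 4, 81.5% of VCaP and 84.7% of RWPE1 EWS peaks lay beyond the stretch, and on chromosome 5, 86.9% and 95.7%. On chromosome 1, 1076 of 1206 RWPE1 EWS peaks lay beyond that stretch (89.2%), against 163 of 266 in VCaP (61.3%). Chromosome 9 was divided at 47209956 to 66457925, with 392 RWPE1 EWS peaks beyond it and 27 before it, whereas VCaP had 165 and 180. Chromosome 20 was divided at 26249221 to 29420527, with 433 RWPE1 peaks beyond and 25 before, against 46 and 57 in VCaP.

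Chromosome 6 had its stronger lean in VCaP. It was divided at 58606751 to 62894795, and 718 of its 770 VCaP EWS peaks lay before that stretch, while RWPE1 had 83 before and 142 beyond. Chromosome 11 leaned beyond its stretch in both lists, with 1561 of 1612 VCaP peaks and 120 of 177 RWPE1 peaks there. On chromosome 3 (88199101 to 93731543), RWPE1 had 4 EWS peaks before and 162 beyond, and VCaP 118 and 78. The EWS list of P436A cells had the RWPE1 pattern on chromosomes 3 and 20, with 90.2% and 88.9% of its peaks beyond. The ERG list of VCaP was closer to VCaP EWS there, with 46.3% and 47.3% beyond. Not every list went by cell line. On chromosomes 1, 3 and 20, ERG replicate 1 in RWPE1 had 82.8%, 88.5% and 91.2% beyond, and replicate 2 had 60.6%, 60.5% and 86.0%. On chromosome 1, replicate 2 was near VCaP EWS (61.3%), and VCaP ERG had 35.9% beyond.

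At the scale of 1 Mb bins, VCaP EWS peaks were the more concentrated. The fullest 77 bins held 50% of the VCaP list, and 231 bins held 50% of the RWPE1 list. With peaks within 10 kb merged, these numbers were 195 and 297. Bins with at least 10 peaks of a list, called crowded here, numbered 194 in VCaP and held 66.9% of its peaks. In RWPE1 there were 100, with 33.8% of its peaks. Single peaks were alone in 36.2% of the occupied bins in VCaP and in 40.6% in RWPE1.

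**Figure D3:**
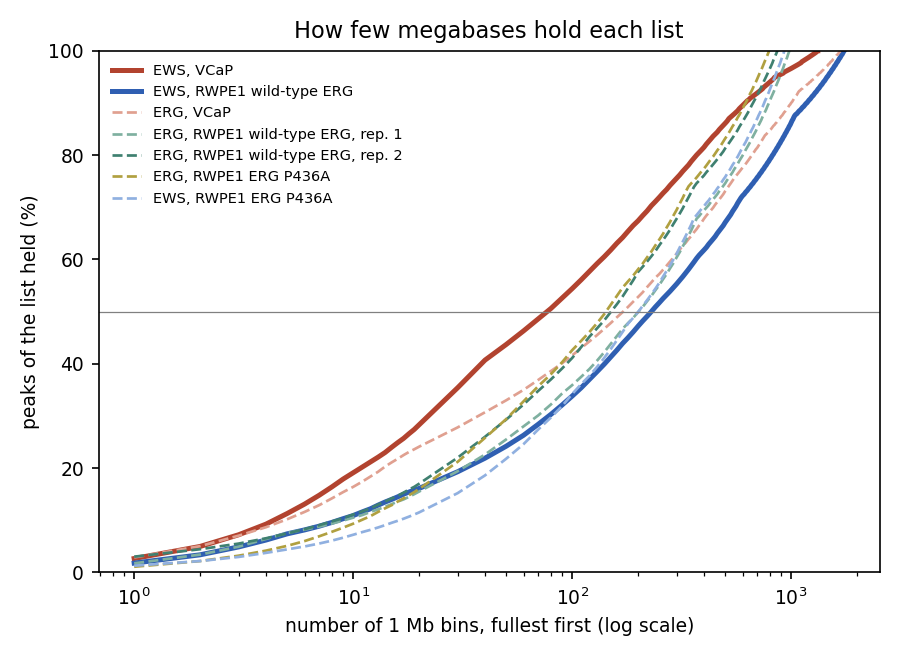
Share of each list (y axis, %) held by its fullest 1 Mb bins (x axis, number of bins, log scale), with the EWS lists compared here as thick lines and the other 5 as broken lines. The 50% line is crossed at 77 bins by VCaP EWS and at 231 bins by RWPE1 EWS.

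The fullest bins of one line were sparse or empty in the other. The 5 fullest VCaP bins were adjacent, on chromosome 11 from 63 to 68 Mb, with 219, 254, 213, 194 and 192 EWS peaks in that order. RWPE1 EWS had 1, 0, 4, 1 and 0 peaks in them, 6 in all. The 5 fullest RWPE1 bins were adjacent as well, on chromosome 1 from 195 to 200 Mb, with 86, 68, 102, 91 and 75 peaks. VCaP EWS had 0 peaks in all of them. Of the 194 crowded VCaP bins, 59 had no RWPE1 EWS peak, 129 had 1 to 9, and 6 had at least 10. Of the 100 crowded RWPE1 bins, 51 had no VCaP EWS peak, 43 had 1 to 9 and 6 had at least 10.

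Adjacent crowded bins formed 76 blocks in VCaP and 50 in RWPE1. The largest VCaP block after chromosome 11 (63 to 73 Mb, 1203 EWS peaks against 8 in RWPE1) was on chromosome 17, 25 to 38 Mb, with 826 VCaP and 16 RWPE1 EWS peaks. That chromosome 17 block had 198 VCaP ERG peaks, whereas the chromosome 13 block from 108 to 113 Mb had 389 EWS and 390 ERG peaks in VCaP. A block of 1 bin on chromosome 8, 38 to 39 Mb, had 157 VCaP EWS and 79 VCaP ERG peaks and no peak in any RWPE1 list. VCaP ERG peaks were present in each of these blocks, in varying proportion.

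In RWPE1 the largest block was on chromosome 1, 195 to 207 Mb, with 598 EWS peaks against 2 in VCaP. It also held 203 peaks of ERG replicate 1, 36 of replicate 2, 113 of the mutant ERG and 112 of EWS in the mutant cells. Further RWPE1 blocks lay on chromosome 1 at 188 to 192 Mb (128 EWS peaks, 0 in VCaP) and 219 to 222 Mb (105 and 0). On chromosome 20, 29 to 35 Mb held 111 RWPE1 and 16 VCaP EWS peaks. Whether these blocks follow copy number in either line was not tested.

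**Figure D4:**
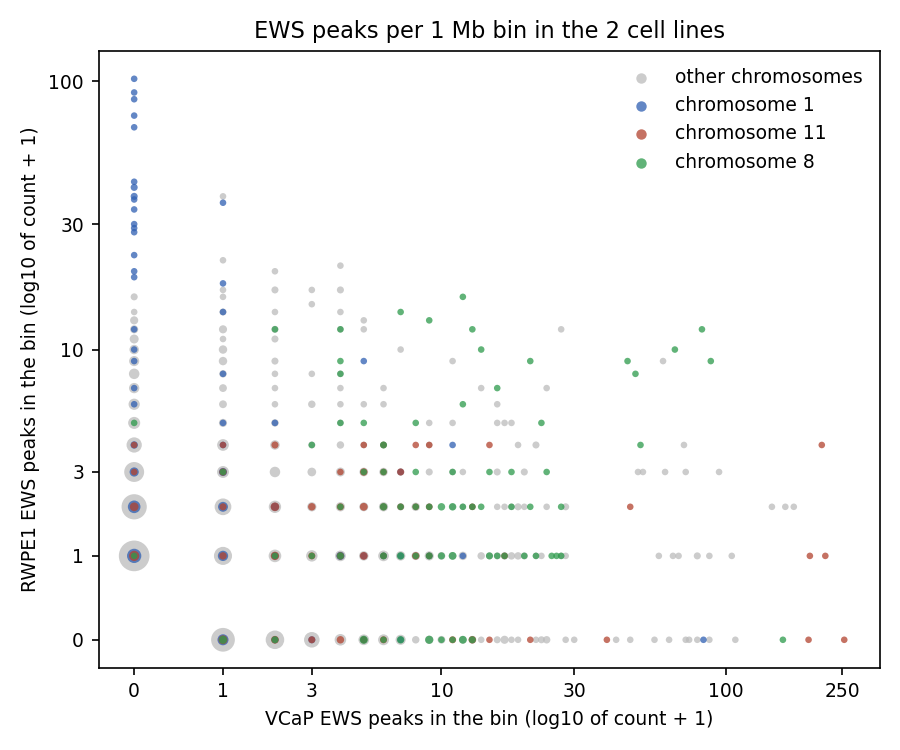
RWPE1 EWS peaks (y axis) against VCaP EWS peaks (x axis) in each 1 Mb bin, both as log10 of the count plus 1, where larger points stand for more bins with the same counts. Bins full in one line sit along the axes, chromosome 1 at the left (102 RWPE1 peaks and 0 VCaP peaks at most) and chromosome 11 at the lower right, and most bins with at least 10 peaks of both are on chromosome 8.

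Counts per bin were more alike between antibodies in the same cells than between cell lines with the same antibody. Over the 2604 bins of chromosomes 1 to 22 and X with a peak in any list, Pearson's r was −0.01 (Spearman's rho −0.07) for VCaP EWS with RWPE1 EWS. It was 0.87 (rho 0.51) for VCaP EWS with VCaP ERG and 0.81 (rho 0.30) for RWPE1 EWS with ERG replicate 1. RWPE1 EWS and EWS of P436A cells gave 0.61 (rho 0.33), and RWPE1 EWS with ERG replicate 2 gave 0.18 (rho 0.21). The 2 ERG replicates of RWPE1 gave 0.23 (rho 0.27) with each other, so likeness within RWPE1 varied with the list used. These values describe the lists and carry no test, since neighbouring bins are not independent and bins share mappability, gene content and, within a line, copy number.

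Chromosome 8 held the most shared sites. It had 15 of the 70 shared RWPE1 peaks (21.4%), although only 5.38% of the RWPE1 list lay there. Of its 307 RWPE1 EWS peaks, 4.89% were shared (2.76% to 7.93%), against 3 of 1206 on chromosome 1 (0.249%, 0.0513% to 0.725%). RWPE1 EWS peaks on chromosome 8 had a VCaP EWS peak at a median distance of 30.3 kb, against 1928 kb on chromosome 1, 790 kb on chromosome 5 and 254 kb on chromosome 20. On chromosome 21, 6 of 54 RWPE1 EWS peaks were shared (11.1%, 4.19% to 22.6%), the one higher share by chromosome. All of these except the peak at 39835655 to 39836134 lay at 9 to 12 Mb, whereas 40 of the 54 lay beyond that stretch. From the VCaP side the order was another: the median distance to an RWPE1 EWS peak was 135 kb on chromosome 8, 78.0 kb on chromosome 5 and 74.9 kb on chromosome 20, and 0.976% of the VCaP peaks on chromosome 8 were shared against 5.83% on chromosome 20. VCaP EWS peaks numbered 10.6 per Mb on chromosome 8 and 1.07 per Mb on chromosome 1. Chromosome 17 was denser in VCaP, with 11.6 per Mb, and had 3.74% of its RWPE1 peaks shared (1.03% to 9.30%, an interval that includes the value of chromosome 8) at a median distance of 231 kb. The part of peak density in these values was not tested.

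Most of the bins full in both lines also lay on chromosome 8. Of the 6 bins that were crowded in both, 5 were there, starting at 124, 126, 128, 131 and 134 Mb, and 1 was on chromosome 21 (11 to 12 Mb). The bin from 128 to 129 Mb had 83 VCaP and 12 RWPE1 EWS peaks, that from 134 to 135 Mb had 67 and 10, and that from 131 to 132 Mb had 12 and 16. The stretch from 124 to 140 Mb, delimited after its values were seen as the first bin crowded in both lists up to the end of the last VCaP block with such a bin, held 538 VCaP EWS peaks (35.0% of those on the chromosome) and 145 RWPE1 EWS peaks (47.2%). Of these 145, 10 were shared (6.90%). The other lists had peaks there too. VCaP ERG had 177, the ERG replicates 49 and 17, and the P436A cells 35 for ERG and 27 for EWS.

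The number of VCaP peaks in a bin moved with the share of RWPE1 peaks that were shared. In bins with 1 to 4 VCaP EWS peaks, 21 of 1696 RWPE1 peaks were shared (1.24%, 0.768% to 1.89%). With 5 to 9 the value was 15 of 384 (3.91%, 2.20% to 6.36%), with 10 to 49 it was 19 of 297 (6.40%, 3.90% to 9.81%), and with 50 or more it was 15 of 82 (18.3%, 10.6% to 28.4%). A bin with more peaks offers more places to overlap. Of the 70 shared sites, 24 lay in bins crowded in neither list, 25 in bins crowded in VCaP alone, 12 in RWPE1 alone and 9 in both. Crowded VCaP bins held 379 of the 5703 RWPE1 peaks and crowded RWPE1 bins held 1929. Most RWPE1 peaks thus lay in bins crowded in neither list, but only 24 of the 70 shared sites did. Shared sites were therefore less frequent in such bins than the list as a whole, and more frequent in bins crowded in VCaP. The part of peak density in this was not tested. In the other direction, 32 of 5414 VCaP EWS peaks were shared in bins with 1 to 4 RWPE1 EWS peaks (0.591%), 18 of 570 with 5 to 9 (3.16%) and 21 of 318 with 10 to 49 (6.60%). Leaving out bins with at least 10 EWS peaks of both lists together left 16 shared peaks. That step removed every bin crowded in either list, and other bins that reached 10 only together. Each list's own crowded bins held 66.9% of the VCaP and 33.8% of the RWPE1 peaks, so at least these shares were removed. The 16 is thus not a share of the full lists.

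Chromosomes 5 and 9 followed chromosome 8 with 9 shared RWPE1 peaks each, and chromosomes 11, 20 and 21 had 6 each. Chromosomes 15 and 17 had 4 each, chromosomes 1 and 4 had 3 each, chromosome 6 had 2, and chromosomes 10, 12 and 13 had 1 each. The share of RWPE1 peaks that were shared was 0.963% on chromosome 5, where RWPE1 had 935 peaks, and 3.39% on chromosome 11, where VCaP had 1612. There were no shared sites on chromosomes 2, 3 and 16, where RWPE1 had 344, 166 and 111 EWS peaks, or on chromosome 22, where VCaP had 172.

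The shared sites with the longest overlaps lay on several chromosomes. On chromosome 21, the RWPE1 peak at 9825341 to 9828155 contained 2 VCaP peaks whole, each 501 bp long. On chromosome 11, 65270613 to 65274005 in RWPE1 contained a VCaP peak of 500 bp at 65272224 to 65272723. Chromosome 10 had an overlap of 499 bp at 127579702 to 127580200. On chromosome 5, overlaps of 497 bp and 494 bp lay at 138257546 to 138258042 and 98106877 to 98107370. On chromosome 8, overlaps of 495 bp and 494 bp lay at 134876129 to 134876623 and 138547676 to 138548169. Chromosome 9 had 500 bp at 68425824 to 68426323 and 495 bp at 68415307 to 68415801. The RWPE1 peaks of the chromosome 9 pair were 2640 bp and 7061 bp wide, so each could hold a VCaP peak whole.

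Shared RWPE1 peaks had a somewhat larger median width than the list, 523 bp against 500 bp. Of the 70, 40 (57.1%) were wider than 501 bp, against 45.3% of the list. No interval was computed for the 57.1%, so whether counting error covers the difference is not known. A wider peak also has more bases at which an overlap can occur, and the part of this in the difference was not tested. No VCaP EWS peak was wider than 501 bp, and the shared ones had a median of 491 bp against 490 bp. Shared peaks did not lead their lists: their median position was 50.2% of the way down the RWPE1 list and 62.9% down the VCaP list. The order of the lists is not documented as a ranking.

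ERG was present at a minority of the shared sites. In VCaP, 6 of the 71 shared EWS peaks had a VCaP ERG peak (8.45%, 3.16% to 17.5%), where all VCaP EWS peaks had 10.3%. In RWPE1, 8 of the 70 shared EWS peaks had a wild-type ERG peak of either replicate (11.4%, 5.07% to 21.3%), against 3.89% of all RWPE1 EWS peaks. By replicate these were 7 of 70 (10.0%) against 3.03% in replicate 1, and 3 of 70 (4.29%) against 1.10% in replicate 2. No shared site had ERG of both cell lines, and 0 of 70 allows a share of up to 4.29%, taken as 3 peaks of 70 and not as an exact interval.

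These ERG counts were small and changed with the overlap rule. VCaP ERG peaks were wide, up to 184765 bp, and one wide peak can span an EWS site without centring on it. With centres required to lie within 500 bp, both for sharing and for ERG, 1 shared VCaP peak and 3 shared RWPE1 peaks had an ERG peak of their own cells. Of the 8 in RWPE1, 5 lay on chromosome 9 at 68 to 69 Mb or chromosome 21 at 9 to 12 Mb, stretches picked with their values known. Without those stretches 3 of 62 shared sites had wild-type ERG (4.84%, 1.01% to 13.5%), close to the 3.89% of the whole list.

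The shared sites with VCaP ERG lay on chromosomes 4, 5, 11 and 13. Their RWPE1 peaks were chr4:190501227-190501702, chr5:98106812-98107420, chr11:63924755-63925368, chr11:65190372-65190860, chr11:65195291-65197265 and chr13:111538197-111539810. The same 6 RWPE1 EWS peaks overlapped VCaP ERG directly (8.57%), against 0.526% of all RWPE1 EWS peaks. The shared peaks were chosen for lying at a VCaP EWS peak, and 10.3% of all VCaP EWS peaks had VCaP ERG. A share above that of the RWPE1 list thus follows at least in part from that choice. None of the 6 had a peak in any other RWPE1 list.

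Shared sites were found again in other RWPE1 lists more often than the list as a whole. Of the 70, 14 had a peak in at least 1 of the other 4 RWPE1 lists (interval 11.4% to 31.3%), against 6.01% of all RWPE1 EWS peaks (5.41% to 6.66%). Without the chromosome 9 and 21 stretches it was 8 of 62 (12.9%, 5.74% to 23.9%), an interval that includes the value of the whole list. EWS of P436A cells was present at 6 of 70 (8.57%, 3.21% to 17.7%), against 1.40% of the list, and at 2 of 62 without those stretches (3.23%, 0.393% to 11.2%). ERG P436A was present at 6 of 70, against 1.51%.

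From the side of VCaP, 9 of the 71 shared EWS peaks had a wild-type ERG peak of RWPE1 (12.7%, 5.96% to 22.7%), against 0.937% of all VCaP EWS peaks. An EWS peak of P436A cells was present at 6 of 71 (8.45%), against 0.516%, and some of these peaks are among the 9. These peaks were chosen for lying at an RWPE1 peak, so a higher share of other RWPE1 peaks follows in part from that choice. No test was made of any of these shares.

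**Figure D5:**
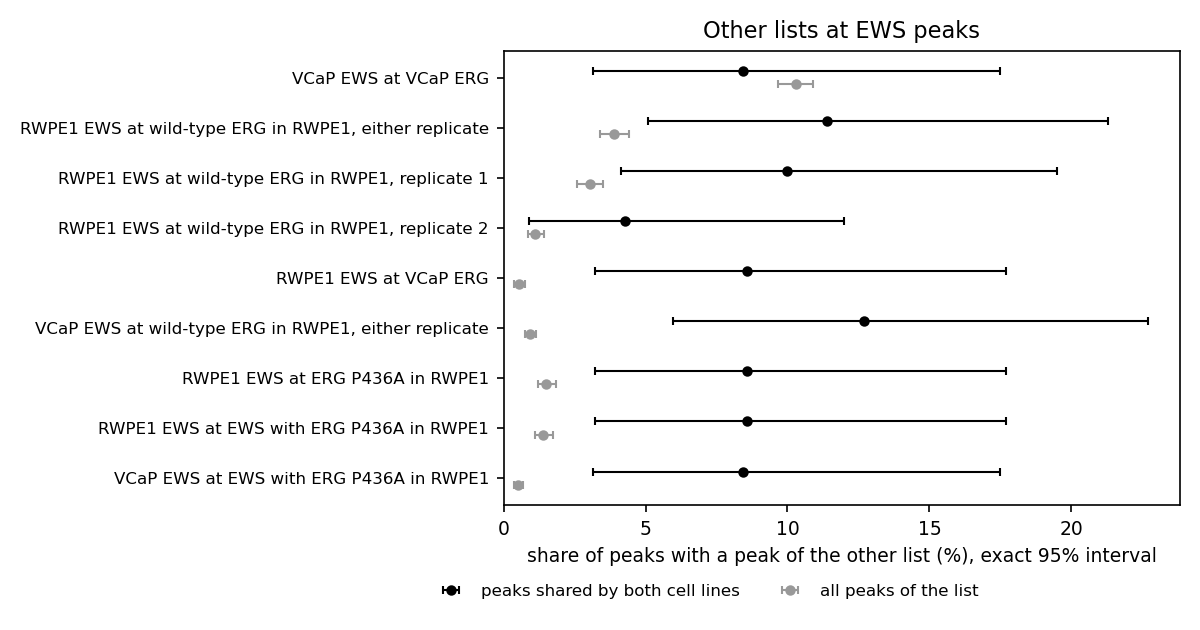
Share of EWS peaks (x axis, %, exact 95% binomial intervals) with a peak of another list (y axis), for the peaks shared by both cell lines (black) and for all peaks of the list (grey). VCaP EWS at VCaP ERG shows the shared peaks below the list, 8.45% against 10.3%, whereas RWPE1 EWS at wild-type ERG stands at 11.4% against 3.89%.

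Few sites recurred through the series. Of the 70 shared sites, 50 were in no other list, 15 were in 3 lists in all, 3 were in 4, 1 was in 5, 1 was in 6 and 0 were in 7. The site in 6 lists was that of chromosome 21, 9825341 to 9828155, which lacked only VCaP ERG. The site in 5 lists was chromosome 9, 68413419 to 68420479, which lacked VCaP ERG and ERG replicate 2. Sites in 4 lists were chr9:68430531-68431572, chr8:141600879-141601286 and chr10:127579698-127580928. The chromosome 10 site was the 1 of these with a peak in both ERG replicates and none with P436A. The repeat content of recurring sites was not tested.

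In 3 of the 1 Mb bins there were at least 3 shared RWPE1 peaks. On chromosome 21, 11 to 12 Mb held 27 VCaP and 12 RWPE1 EWS peaks, of which 4 RWPE1 peaks were shared. On chromosome 11, 65 to 66 Mb held 213 VCaP and 4 RWPE1 EWS peaks, and 3 of those 4 were shared. On chromosome 9, 68 to 69 Mb held 6 VCaP and 7 RWPE1 EWS peaks, and 3 of those 7 were shared. By contrast, 12 shared sites were the only RWPE1 EWS peak of their bin, and 5 were the only VCaP EWS peak of theirs.

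The X chromosome had few EWS peaks, 23 in VCaP and 3 in RWPE1, and none was shared. Of the VCaP peaks, 11 lay between 65 and 69 Mb, where RWPE1 had 0, and 4 of these were among the first 5 peaks listed. VCaP is known to carry extra copies of the androgen receptor gene, which lies on the long arm of the X chromosome. Copy number was not tested, as the input reads were not used here.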

How the data were processed

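Peak lists of 7 ChIP samples were used, and each holds chromosome, start and end without a header, per the deposited files. The deposited values are thus positions in base pairs, with no height, score or p-value. Reads were aligned to hg19 with Bowtie2, version given as 0.12.8, per the submitters' processing notes. Which program called peaks, with what threshold or control, is not stated in any source at hand. No read depth is known, and list length is therefore no measure of how much EWS was bound.

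Start positions were taken as counted from 0, which the lists do not state, and are printed 1-based on hg19. Peaks were shared if at least 1 bp overlapped, and were assigned to 1 Mb bins by their centre. Genes and sequences were not assigned, because the reference tables used another assembly, and the planned gene lists were not run. Named regions followed a rule: the 10 longest overlaps, sites in most lists, sites with ERG of both lines (there were 0), and the 5 fullest bins of each list and of both together. Other regions named were picked with their values known. The members, lists and rules were chosen with earlier results of these data known. Overlap counting was checked on simulated lists, and 70 planted sites were recovered in 20 of 20 draws. Python 3.11.15, NumPy 2.4.6, SciPy 1.17.1 and Matplotlib 3.10.9 were used.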

Additional observations from a re-analysis of the deposited data

How the results depend on the processing

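No paired analysis was possible because each EWS list is a single sample and no test was made. Of 56 alternatives over 15 values, 35 stayed within 1.5 times of a count or within the interval of a share, and 21 did not. Shared peaks fell to 16 in each list outside bins with at least 10 peaks of both lists together, and VCaP shared peaks were 109 with a gap of up to 1 kb. The first of these settings also removed all crowded bins, and with them at least 66.9% of the VCaP and 33.8% of the RWPE1 peaks. Without chromosome 8, chosen after seeing the data, 55 RWPE1 peaks were shared. Bins that hold 50% of the list were 135 (VCaP) and 409 (RWPE1) with bins of 500 kb, 48 and 127 with bins of 2 Mb, as follows from bin size, and 195 for VCaP with peaks within 10 kb merged. Merging also gave chromosome shares of 17.5% (8), 9.05% (11) and 7.70% (17) in VCaP and 16% (1) and 17.4% (5) in RWPE1. VCaP stayed the more concentrated list under each of these bin settings. Shared VCaP peaks with ERG numbered 0 with a reciprocal overlap of 0.5, 1 with centres within 500 bp and 1 with peaks set to 500 bp. Shared RWPE1 peaks with ERG numbered 1, 3 and 3, and 3 without the chromosome 9 and 21 stretches, an alternative added after seeing the data. They ranged from 3 to 7 when either ERG replicate was left out (3 without replicate 1). The cause of these changes was not tested. The unknown depth and calling settings limit every comparison of list lengths, widths, spacing, bin counts and overlaps. With every peak set to 500 bp, 64 RWPE1 peaks were shared.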
